A study of Mus musculus with 6 samples.

Results

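Rgs14 was examined together with 8 other genes enriched in CA2 pyramidal neurons of the mouse hippocampus: Pcp4, Amigo2, Cacng5, Necab2, Map3k15, Ptpn5, Stard5 and Fgf2. These 9 genes, out of 55471 in the deposited count table, were chosen by name from earlier results of the same libraries, to ask whether Rgs14 was lower alone or together with other CA2 genes. Rgs14 and Necab2 stand on the study's list of genes lower in CBP-ifKO mice, which was drawn partly from these libraries, and the other genes were added as CA2-enriched genes. The values of the 9 genes in this contrast are therefore a description, and no p is given for them. All 9 passed the filter on low counts and were among the 17981 genes tested.

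CA2 is a narrow field of pyramidal neurons between CA3 and CA1. Its Schaffer collateral synapses resist long-term potentiation, and the field is required for social memory. RGS14, a scaffold protein concentrated in CA2 dendrites and spines, speeds GTP hydrolysis by Gαi/o proteins, binds active H-Ras and Rap as well as calmodulin, and restrains synaptic plasticity in CA2.

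The data were 6 RNA-seq libraries of total hippocampal RNA from C57BL/6 mice (C57BL/6J in the methods), 3 from Control and 3 from CBP-ifKO animals, all 3 to 6 months old. In CBP-ifKO mice, floxed Crebbp alleles, which encode the lysine acetyltransferase CBP, were recombined by the Camk2a-creERT2 driver, which is active in forebrain excitatory neurons of all hippocampal fields and not in CA2 alone. Both groups received 5 intragastric administrations of tamoxifen at 20 mg/ml. The protocol text and the study's methods describe the controls as littermates without the driver, whereas the description label of the Control samples reads Camk2a_creERT2. Levels of Esr1, which the study reports as raised in carriers of the driver, go with the protocol text. They were 5.65 to 6.29 CPM in the Control libraries and 63.6 to 69.4 CPM in the CBP-ifKO libraries. By the study's methods, each library held the pooled hippocampi of several female mice, and the recombined allele still gives a truncated CBP. Total counts ran from 10199008 to 14950257 per library. Levels are given as CPM, that is, with every library brought to the same size by the trimmed mean of M-values (TMM), and as mean ± SD over 3 libraries. A gene was called changed at an adjusted p under 0.05 by the edgeR quasi-likelihood test over all genes tested. The 3 values of a group are printed in the order of the replicate numbers. Nothing in the labels says which animals stand behind a replicate number, so the spread between libraries is the only error measured.

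Crebbp, the targeted gene, fell from 191.2 ± 30.1 CPM in Control to 98.4 ± 10.8 CPM in CBP-ifKO (SD, n = 3). The log2 fold change was -0.96, with an SE of 0.10 and an edgeR adjusted p of 3.63e-05. Esr1, part of which is contained in the inducible recombinase, rose from 6.07 ± 0.362 to 66.7 ± 2.91 CPM, with a log2 fold change of 3.45 (SE 0.097, adjusted p 7.90e-13 by edgeR). In both genes the 3 Control libraries stood apart from the 3 CBP-ifKO libraries. All 9 CA2-enriched genes were detected in every library. In bulk tissue, fewer CA2 neurons and less RNA per neuron cannot be told apart.

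RefSeq promoter windows (250 bases before to 50 after a gene start, build GRCm38.p6) were matched by symbol for 7 of the 9 genes, with 9 windows in all. Rgs14 and Map3k15 had no entry. CBP is a coactivator of CREB, which binds the cyclic AMP response element, so the windows were searched on both strands for the full element TGACGTCA and for its short form TGACG, which is contained in the full one. The full element was found in none of the 9 windows, against 1.79% of 32851 windows of all genes. The short form was found in the windows of Fgf2 and Stard5, against 20.8% of all windows. The windows of Fgf2 and Stard5 are shown beside those of Necab2 and Ptpn5, 2 of the genes called lower, because the short form occurred only in the first pair. Capitals mark TGACG or its reverse complement CGTCA, and each sequence runs 5′ to 3′ on the strand of the gene.
Fgf2, chr3:37348403-37348702, plus strand: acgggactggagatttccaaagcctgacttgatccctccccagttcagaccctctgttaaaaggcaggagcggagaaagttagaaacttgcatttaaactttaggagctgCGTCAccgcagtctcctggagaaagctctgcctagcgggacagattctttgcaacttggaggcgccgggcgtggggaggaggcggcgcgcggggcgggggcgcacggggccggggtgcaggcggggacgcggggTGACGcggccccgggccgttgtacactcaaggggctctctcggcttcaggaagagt
Stard5, chr7:83631767-83632066, plus strand: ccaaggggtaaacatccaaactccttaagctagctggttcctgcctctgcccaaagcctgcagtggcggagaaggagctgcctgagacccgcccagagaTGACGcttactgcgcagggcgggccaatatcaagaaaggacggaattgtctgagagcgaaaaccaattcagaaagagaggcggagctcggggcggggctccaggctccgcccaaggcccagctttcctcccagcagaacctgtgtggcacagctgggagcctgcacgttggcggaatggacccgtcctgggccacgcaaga
Necab2, chr8:119446469-119446768, plus strand: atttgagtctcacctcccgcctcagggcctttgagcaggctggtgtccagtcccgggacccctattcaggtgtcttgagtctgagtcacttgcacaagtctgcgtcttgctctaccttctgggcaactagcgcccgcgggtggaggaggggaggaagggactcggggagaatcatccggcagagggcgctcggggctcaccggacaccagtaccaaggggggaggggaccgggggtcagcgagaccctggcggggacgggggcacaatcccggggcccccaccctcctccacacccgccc
Ptpn5, chr7:47132549-47132848, minus strand: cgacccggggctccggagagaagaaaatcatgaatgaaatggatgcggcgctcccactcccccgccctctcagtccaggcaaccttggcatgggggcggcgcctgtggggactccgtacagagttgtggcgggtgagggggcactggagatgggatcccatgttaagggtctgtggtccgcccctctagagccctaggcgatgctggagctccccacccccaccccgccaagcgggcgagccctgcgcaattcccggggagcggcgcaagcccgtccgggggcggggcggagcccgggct

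Counted from the RefSeq start that defines the window, the Fgf2 matches began 140 and 6 bases before it and the Stard5 match 151 bases before it. This start can differ from that of the annotated gene given below. The Fgf2 window lies inside the annotated gene, which starts at 37348346. A second Ptpn5 window (chr7:47133635-47133934) and the windows of Pcp4, Amigo2 and Cacng5 held no short form. TATAAA was found in none of the 9 windows, against 13.6% of all windows. The GC box GGGCGG was found in at least 1 window of each of the 7 genes except Pcp4. The second Ptpn5 window and a Cacng5 window (chr11:107911313-107911612) held none. Of all windows 35.7% held it, a share counted per window and not per gene. The window of Amigo2 was the richest in G and C of the 9, with 83.3%, and the windows of Pcp4 and the second of Ptpn5 had 48.7%, where the median of all windows was 52.7%. These matches are a description of letters in the windows, not of bound sites.

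Of the 9 CA2-enriched genes, 3 were called lower in CBP-ifKO, namely Rgs14, Necab2 and Ptpn5, and none was called higher. Among all genes tested 6.39% were called in either direction, 1149 in number, and 4.99% were called lower. The rule for the genes used this contrast, so nothing is read from these shares. The other 6 genes were not called in either direction. Rgs14 had the largest fall of the 9, Necab2 the next and Ptpn5 a smaller one, while Pcp4, Cacng5, Stard5 and Fgf2 had log2 fold changes between -0.03 and 0.02. The median log2 fold change of the 9 genes was -0.03, and that of all genes tested was 0.00. The groups did not overlap for 4 of the 9 genes, the 3 called lower and Map3k15, against 25.6% of all genes tested.

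**Figure D1:**
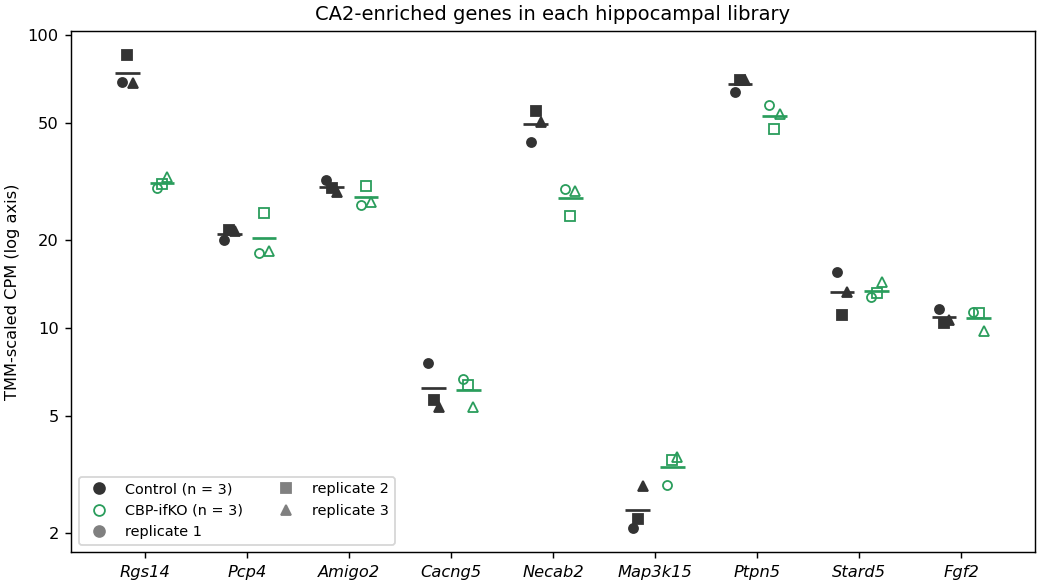
Levels of the 9 CA2-enriched genes in TMM-scaled CPM on a log axis, with 1 point per library (filled grey, Control; open green, CBP-ifKO; symbol shape, replicate number) and a horizontal bar for the group mean. The groups are apart for Rgs14, Necab2, Ptpn5 and Map3k15 and overlap for the other 5 genes.

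Rgs14 (ENSMUSG00000052087, GRCm38 chromosome 13, 55369732 to 55384687, plus strand) stood at 69.0, 85.4 and 68.5 CPM in the Control libraries and at 30.0, 30.9 and 32.8 CPM in the CBP-ifKO libraries. All 3 CBP-ifKO libraries lay under the 3 Control libraries, and their values lay closer together than the Control values, among which replicate 2 was high. The mean went from 74.3 ± 9.59 to 31.2 ± 1.39 CPM, which is 42.0% of the Control level, with a log2 fold change of -1.25 (SE 0.089). These values rest on 310 to 994 counts per library. None of the exon bases of Rgs14 is shared with another annotated gene. Rgs14 was called lower under all 17 alternative settings, with log2 fold changes between -1.30 and -1.12.

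Necab2 encodes a neuronal calcium-binding protein with EF hands that binds the adenosine and metabotropic glutamate receptors. It lies on chromosome 8 (119446719 to 119472640, plus strand). Its level was 43.0, 55.0 and 50.6 CPM in the Control libraries and 29.7, 24.1 and 29.3 CPM in the CBP-ifKO libraries. The groups did not overlap, with Control replicate 2 the highest and CBP-ifKO replicate 2 the lowest of the 6 libraries. The mean went from 49.5 ± 6.06 to 27.7 ± 3.10 CPM, 55.9% of Control (log2 fold change -0.85, SE 0.10). The longest transcript of Necab2 has 63.6% G and C, at the 99.4th percentile of genes, and Control replicate 2 and CBP-ifKO replicate 2 had slopes of log2 level on GC content of opposite sign, 0.134 and -0.116 per 10 percentage points. With the trends on GC content and length removed from each library the log2 fold change of Necab2 was -0.54, and with these 2 libraries left out it was -0.66. Necab2 was called lower in both cases, and under all 17 alternatives.

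Ptpn5 encodes STEP, a tyrosine phosphatase of the striatum and other forebrain neurons that dephosphorylates ERK, Fyn and Pyk2. It lies on chromosome 7 (47077795 to 47133684, minus strand). The Control libraries had 63.6, 70.0 and 69.9 CPM, and the CBP-ifKO libraries had 57.6, 47.8 and 53.5 CPM. The groups did not overlap, and replicate 1 was the lowest Control and the highest CBP-ifKO library. The mean went from 67.8 ± 3.69 to 53.0 ± 4.88 CPM, 78.1% of Control (log2 fold change -0.36, SE 0.078). The call was lost when replicate 3 of Control, or either replicate 2 or replicate 3 of CBP-ifKO, was left out, with log2 fold changes of -0.34, -0.28 and -0.36. Of the 6 striatal markers, which could enter with neighbouring tissue, 4 were tested, with a median log2 fold change of -0.44. Of these, 3 had a negative log2 fold change without being called, among them Ppp1r1b at -0.50 (edgeR adjusted p 0.0531). Rgs9 alone rose, from 13.1 to 17.8 CPM, and was called higher. The summed level of the 6 markers, Rgs9 included, was 33.3 to 38.7 CPM in Control libraries and 32.6 to 34.9 CPM in CBP-ifKO. This sum therefore hides the fall of the other tested markers. Their part in the Ptpn5 values was not tested.

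Pcp4 encodes PEP-19, a small calmodulin-binding protein and a standard marker of CA2, also abundant in Purkinje cells. Its values of 19.9, 21.6 and 21.4 CPM in the Control libraries lay within the range of 18.0, 24.7 and 18.3 CPM in the CBP-ifKO libraries. The means were 21.0 ± 0.947 and 20.3 ± 3.79 CPM (log2 fold change -0.03, SE 0.12). Replicate 2 was the high library of CBP-ifKO, and without it the log2 fold change was -0.20, still not called. Pcp4 (chromosome 16, 96467606 to 96525793, plus strand) shares 23.7% of its exon bases with Igsf5, which had 0 counts in every library.

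Amigo2 encodes an adhesion protein with leucine-rich repeats that is used to mark CA2. It stood at 31.9, 30.0 and 29.1 CPM in the Control libraries and at 26.3, 30.6 and 26.9 CPM in the CBP-ifKO libraries. CBP-ifKO replicate 2 lay among the Control values and the other 2 CBP-ifKO libraries below them. The means were 30.3 ± 1.46 and 27.9 ± 2.32 CPM (log2 fold change -0.11, SE 0.09), not called. Amigo2 (chromosome 15, 97244125 to 97247287, minus strand) shares 1.83% of its exon bases with Pced1b.

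Cacng5 encodes TARP γ-5, an auxiliary subunit of AMPA receptors. The Control libraries had 7.60, 5.67 and 5.36 CPM, and the CBP-ifKO libraries had 6.69, 6.38 and 5.35 CPM. Replicate 1 was the highest library of both groups, and the groups overlapped. The means of 6.21 ± 1.22 and 6.14 ± 0.700 CPM differed by less than the SD of either group (log2 fold change -0.02, SE 0.17).

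Stard5 encodes a lipid transfer protein of the START group. Its level was 15.5, 11.1 and 13.3 CPM in the Control libraries and 12.7, 13.1 and 14.3 CPM in the CBP-ifKO libraries, so that all CBP-ifKO values lay inside the Control range. The means were 13.3 ± 2.21 and 13.4 ± 0.838 CPM (log2 fold change 0.02, SE 0.13). Stard5 (chromosome 7, 83631959 to 83653127) shares 22.0% of its exon bases with Il16 on the other strand. Il16 was itself called lower (-0.40 on the log2 scale, SE 0.08, adjusted p 0.00659 by edgeR), and without a stated strand setting reads of the shared bases cannot be assigned to either gene. Fgf2, a growth factor also made by astrocytes, stood at 11.6, 10.4 and 10.6 CPM in the Control libraries and at 11.3, 11.2 and 9.79 CPM in the CBP-ifKO libraries. The groups overlapped, with means of 10.9 ± 0.667 and 10.8 ± 0.849 CPM (log2 fold change -0.01, SE 0.12). None of the 6 astrocyte markers was called by edgeR in the fit as reported or by DESeq2 (1 at an unadjusted p under 0.05 by edgeR). Of the 17 alternatives, 2 called 1 or 2 of them. Their summed level was 1286.9 to 1336.5 CPM in Control libraries and 1196.0 to 1295.5 CPM in CBP-ifKO. The share of all genes tested under such an unadjusted p is not given, so nothing is read from such counts here or below. Fgf2 (chromosome 3, 37348346 to 37410108) shares 9.44% of its exon bases with Nudt6 on the other strand, which had 2 to 12 counts per library.

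Map3k15, which encodes the MAP kinase kinase kinase ASK3, was the 1 gene of the 9 whose CBP-ifKO values all lay above the Control values. It had 2.07, 2.23 and 2.88 CPM in the Control libraries and 2.91, 3.55 and 3.62 CPM in the CBP-ifKO libraries. The lowest CBP-ifKO value and the highest Control value were almost equal. The means were 2.39 ± 0.428 and 3.36 ± 0.393 CPM (log2 fold change 0.50, SE 0.22), not called under any of the 17 alternatives. These are 22 to 54 counts per library, for which the counting error is 21.3% at the lowest count. Map3k15 (chromosome X, 159988433 to 160123351) shares 13.9% of its exon bases with Pdha1 on the other strand, which had 1665 to 2749 counts and was not called (-0.09 on the log2 scale, SE 0.06, adjusted p 0.411 by edgeR).

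Set side by side within a library, Rgs14 was lower relative to each of the other 8 genes in CBP-ifKO. The log2 ratio of Rgs14 to Pcp4 was 1.79, 1.98 and 1.68 in the Control libraries and 0.74, 0.32 and 0.84 in the CBP-ifKO libraries. The groups did not overlap, and the mean ratio differed by -1.18. Against Amigo2, Cacng5, Stard5 and Fgf2 the mean log2 ratio differed by -1.12, -1.24, -1.27 and -1.23, again without overlap. Against Ptpn5 the difference was -0.88. The largest difference was against Map3k15, at -1.74, and the smallest against Necab2, at -0.41, with log2 ratios of 0.68, 0.64 and 0.44 in Control and 0.02, 0.36 and 0.16 in the CBP-ifKO libraries. The groups did not overlap there either, but replicate 3 of Control and replicate 2 of CBP-ifKO came close. The ratios still hold the GC trends of the libraries. With GC and length trends removed the log2 fold change of Necab2 was -0.54, while that of Rgs14 was -1.30 to -1.12 over all alternatives. Since Rgs14 was chosen for its fall, these ratios carry no test.

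**Figure D2:**
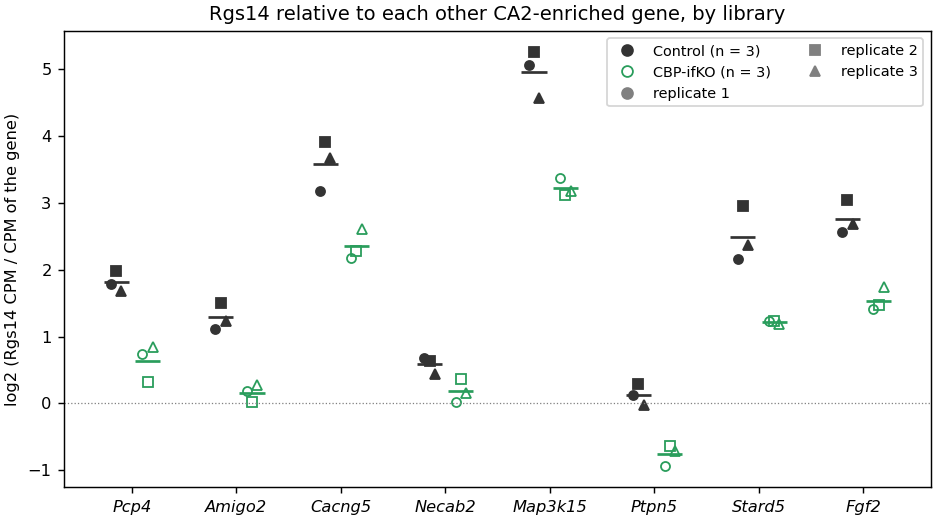
The log2 ratio of Rgs14 CPM to the CPM of each other CA2-enriched gene, with 1 point per library (filled grey, Control; open green, CBP-ifKO; symbol shape, replicate number) and a bar for the group mean. The ratio is lower in all CBP-ifKO libraries for all 8 genes, by 1.18 for Pcp4 and by 0.41 for Necab2 on the log2 scale of the mean.

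The summed level of the 6 genes that were not called was 88.6, 81.0 and 82.6 CPM in the Control libraries and 77.9, 89.5 and 78.3 CPM in the CBP-ifKO libraries. The groups overlapped. The summed level of Rgs14, Necab2 and Ptpn5 was 175.6, 210.3 and 189.0 CPM in Control libraries and 117.3, 102.9 and 115.5 CPM in the CBP-ifKO libraries. The genes were sorted into these sums by their calls in the same contrast. The overlap in the first sum and the gap in the second thus go back to that sorting, and both sums are given only for scale.

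Per kilobase of exon, as given by the deposited gene lengths, the Control level was 23.6 ± 2.89 CPM for Necab2, 20.5 ± 0.923 for Pcp4 and 17.5 ± 2.26 for Rgs14. The values of Necab2 and Pcp4 overlapped, and so did those of Pcp4 and Rgs14. Ptpn5 followed with 11.7 ± 0.638 and Amigo2 with 9.59 ± 0.462 CPM per kilobase, each apart from its neighbours in the order. Stard5 (2.43 ± 0.404), Cacng5 (1.62 ± 0.318), Fgf2 (1.60 ± 0.0983) and Map3k15 (0.550 ± 0.0984 CPM per kilobase) were lower, and of these neighbours Cacng5 and Fgf2 overlapped. With the longest annotated transcript as the length, Pcp4 and Rgs14 came first, at 32.7 and 31.2 CPM per kilobase, and Necab2 followed at 25.1. The 3 genes called lower were thus among the 4 most abundant of the 9 per length, while Pcp4, at a similar level, was not called.

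Further CA2 genes were listed separately and set beside Rgs14. The libraries hold RNA of the whole hippocampus, so a fall in one of these genes cannot be placed in CA2 or in another field. For comparison, the median log2 fold change was -0.51 for CA1 markers, -0.22 for CA3 markers and -0.14 for markers of dentate granule cells. Of the 8 further CA2 genes 7 were tested, and all 7 had a negative log2 fold change, as had 9113 of the 17981 genes tested. Their median was -0.30, against 0.00 for all genes tested. Called lower were 2 of them, against 4.99% of all genes tested, and in 6 the groups did not overlap, against 25.6%. Adora1, the adenosine A1 receptor gene, had 142.9, 137.2 and 144.4 CPM in Control libraries and 119.4, 108.8 and 117.3 CPM in the CBP-ifKO libraries (-0.30 on the log2 scale, SE 0.061, adjusted p 0.00697 by edgeR). Nr3c2, the mineralocorticoid receptor gene, on which CA2 identity depends, had 356.3, 354.9 and 357.0 CPM in Control libraries and 286.7, 318.4 and 301.7 CPM in the CBP-ifKO libraries (-0.24 on the log2 scale, SE 0.057, adjusted p 0.0191 by edgeR). In both genes every CBP-ifKO library lay below every Control library, and the fold changes were smaller than that of Rgs14. The call of Adora1 was lost without Control replicate 3 or CBP-ifKO replicate 2 (edgeR adjusted p 0.0526 and 0.0509), and that of Nr3c2 without replicate 3 of Control and without replicate 1 or replicate 3 of CBP-ifKO (0.0961, 0.0835 and 0.117). Nr3c2 also lost its call with scaling by library totals (-0.19, edgeR adjusted p 0.0603). Without Control replicate 3 none of the 7 genes was called.

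Larger differences, which missed the threshold, were seen in 2 genes of low level. Ntf3, which encodes neurotrophin-3, had 4.51, 5.33 and 6.15 CPM in Control libraries and 2.81, 3.48 and 3.79 CPM in the CBP-ifKO libraries (-0.65 on the log2 scale, SE 0.19, adjusted p 0.0550 by edgeR). Acan, which encodes aggrecan, the core proteoglycan of the perineuronal nets that surround CA2 neurons, had 4.98, 4.12 and 6.74 CPM in Control libraries and 3.59, 3.48 and 2.72 CPM in the CBP-ifKO libraries (-0.68 on the log2 scale, SE 0.21, adjusted p 0.0674 by edgeR). The groups did not overlap in either gene. Ntf3 was called under 5 and Acan under 3 of the 17 alternatives, and the whole list had between 0 and 4 calls. Oxtr, Mcu and Actn2 had log2 fold changes of -0.38, -0.21 and -0.19 and were not called (edgeR adjusted p 0.131, 0.108 and 0.479). Avpr1b, the vasopressin receptor gene typical of CA2, had 30 counts over all libraries and was not tested.

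**Figure D3:**
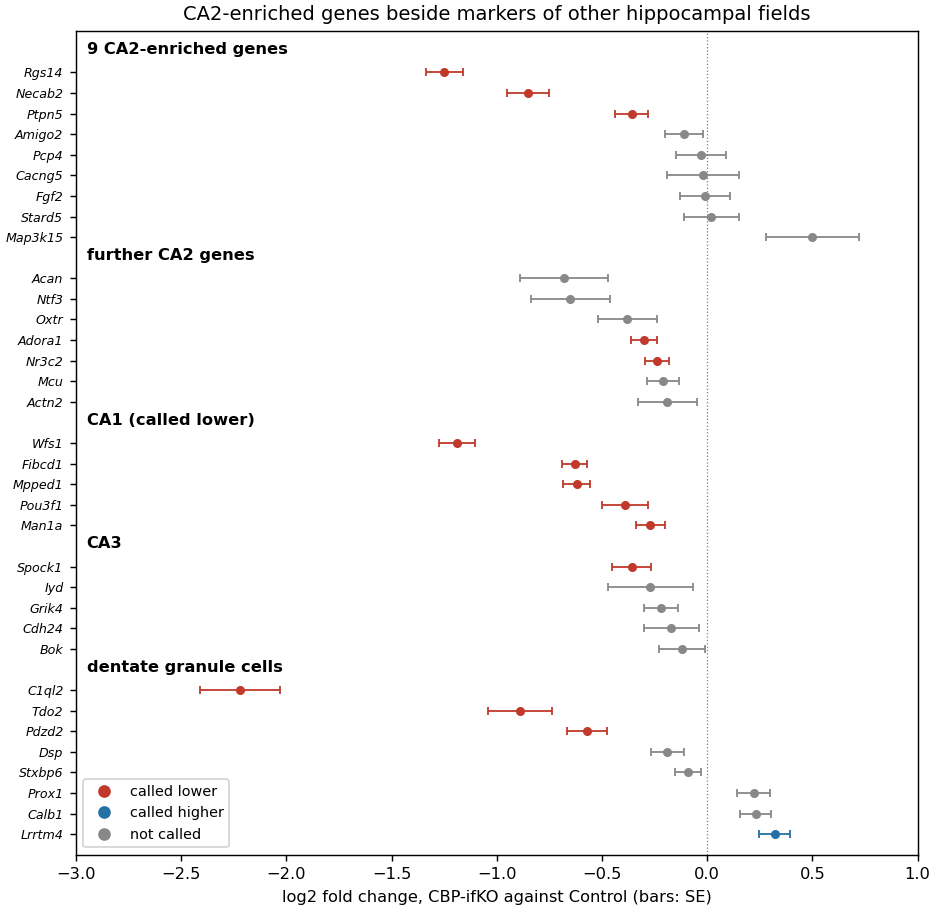
The log2 fold change of CBP-ifKO against Control with its SE for the 9 CA2-enriched genes, further CA2 genes, the 5 CA1 markers called lower, and the markers of CA3 and dentate granule cells (n = 3 libraries per group; red, called lower; blue, called higher; grey, not called at an adjusted p under 0.05). Rgs14 at -1.25 lies near Wfs1, a CA1 marker, at -1.19, and most CA2-enriched genes lie near 0.

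Falls of the size of Rgs14 were also seen in markers of other fields of the hippocampus. Of 6 CA1 markers 5 were called lower, with a median log2 fold change of -0.51. For this list and those below, the share of all genes tested was 6.39% called in either direction and 4.99% called lower. The lists were chosen with earlier results of these data known, so nothing is read from such counts. Wfs1, the wolframin gene, fell from 49.1 ± 3.29 to 21.5 ± 1.16 CPM, a log2 fold change of -1.19 (SE 0.085, adjusted p 8.34e-07 by edgeR), close to the change of Rgs14. Fibcd1 and Mpped1 were called under all 17 alternatives too, whereas Pou3f1 and Man1a lost their calls under 10 and 5 of them. The log2 fold change of Pou3f1 was -0.05 with GC and length trends removed. Of 5 CA3 markers 1 was called, Spock1, at -0.36 (edgeR adjusted p 0.0317), which lost its call under 4 alternatives. Of 8 dentate granule cell markers 3 were called lower, led by C1ql2 at -2.22 (edgeR adjusted p 7.27e-06). Lrrtm4 was called higher at 0.32 (edgeR adjusted p 0.0155), a call lost without replicate 3 of Control and without replicate 2 or 3 of CBP-ifKO (edgeR adjusted p 0.0775, 0.0859 and 0.0542). Dentate markers did not all fall, since 5 had a negative and 3 a positive log2 fold change. Their summed level overlapped, at 589.7 to 621.4 CPM in Control and 583.8 to 627.3 CPM in CBP-ifKO libraries. None of the marker genes of astrocytes, oligodendrocytes, microglia, endothelial cells, thalamus and habenula or choroid plexus was called by edgeR in the fit as reported, DESeq2 or limma-voom (6 of 29 at an unadjusted p under 0.05 by edgeR). Among the 17 alternatives, astrocyte markers were called under 2 and choroid plexus markers under 3, with at most 2 calls in a list. The other lists of these had no call under any. In the fit as reported, edgeR called 1 of 4 for mossy cells (Calb2) and 2 of 7 for interneurons (Sst and Slc32a1). The call of Calb2 was lost under 5 alternatives and that of Slc32a1 under 11, DESeq2 among them, with a log2 fold change of -0.12 for Slc32a1 once GC and length trends were removed. Whether CA2 genes as a group differed from those of the other fields was not tested.

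Among the relatives of Rgs14, 16 of 19 other genes of the RGS family were tested, with a median log2 fold change of -0.07. Rgs4 fell from 149.9 ± 16.2 to 106.0 ± 11.5 CPM, a log2 fold change of -0.50 (SE 0.084, adjusted p 0.00163 by edgeR), and was called under all 17 alternatives. Rgs8 was also called lower (-0.24, edgeR adjusted p 0.0401) and Rgs9 higher (0.44, edgeR adjusted p 0.0221), and these calls were lost under 10 and 6 alternatives. Rgs12, which shares the Ras-binding and GoLoco regions of Rgs14, stood at 36.8 ± 3.50 and 35.3 ± 2.46 CPM (log2 fold change -0.06, edgeR adjusted p 0.750). Of 12 genes for binding partners of RGS14, 2 were called lower, against 4.99% of all genes tested. Calm3, a calmodulin gene, fell from 1253.7 ± 111.9 to 995.5 ± 26.6 CPM, a log2 fold change of -0.33 (SE 0.063, adjusted p 0.00427 by edgeR), and was called under all 17 alternatives, with -0.18 once GC and length trends were removed. Rap2a was called at -0.22 (edgeR adjusted p 0.0431), lost under 11 alternatives. The Gαi genes Gnai1, Gnai2 and Gnai3 had log2 fold changes of -0.09, -0.06 and 0.05 and were not called.

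The relatives of the other genes showed calls next to members with and without one. Necab3 fell from 10.6 ± 1.65 to 5.74 ± 1.09 CPM, a log2 fold change of -0.91 (SE 0.17, adjusted p 0.00389 by edgeR), by about as much as Necab2, and Necab1 had 99.4 ± 7.96 and 99.9 ± 4.35 CPM (0.01). Nrgn, which encodes neurogranin, a calmodulin-binding protein with an IQ motif as in PEP-19, fell from 200.4 to 120.9 CPM, a log2 fold change of -0.73 (SE 0.092, adjusted p 1.76e-04 by edgeR), where Pcp4 was not called. Of the STEP substrates, Ptk2b, which encodes Pyk2, was called lower at -0.22 (edgeR adjusted p 0.0238), a call lost under 5 alternatives, and Mapk3, for ERK1, was at -0.26 without a call (edgeR adjusted p 0.0502). Of 7 genes of FGF ligands, receptors and a co-receptor, Fgfr1 (-0.33, edgeR adjusted p 0.0235) and Sdc3 (-0.40, edgeR adjusted p 0.00532) were called lower, against 4.99% of all genes tested. Both calls were lost with GC and length trends removed, but held when the replicate number was a block as well. The call of Sdc3 was lost under no other alternative. The call of Fgfr1 was also lost without replicate 1 or 3 of Control and without replicate 2 or 3 of CBP-ifKO (edgeR adjusted p 0.0595 to 0.139). None of 5 other TARP genes, 6 genes of ASK kinases and their targets or 3 genes of the START group was called by edgeR in the fit as reported, DESeq2 or limma-voom. Of these 14 genes, 3 had an unadjusted p under 0.05 by edgeR. These lists were not all without calls elsewhere. TARP genes were called under 5 of the 17 alternatives (at most 2 genes) and 1 gene of the ASK list under 3, but no START gene under any.

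The genes next to Rgs14 on chromosome 13 were not called. Lman2, 6948 bases away, had 71.4 ± 4.12 CPM in Control libraries and a log2 fold change of -0.09 (edgeR adjusted p 0.483), and Grk6, 60384 bases away, had one of -0.19 (edgeR adjusted p 0.177). The neighbours of Necab2, Mlycd and Mbtps1, were at -0.06 and 0.03, and those of Ptpn5, Tmem86a and Zdhhc13, at 0.03 and 0.08. Genes that overlap a member, such as Il16 at Stard5, were not counted as neighbours. None of the 18 nearest tested genes that lie clear of the 9 was called by edgeR, DESeq2 or limma-voom, where edgeR called 6.39% of all genes tested. An unadjusted p under 0.05 by edgeR was seen in 6 of the 18. The share of all genes tested under that unadjusted p is not given, so nothing is read from this count.

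Over the 6 libraries, the genes whose log2 CPM followed Rgs14 most closely by Pearson's r, among 17432 genes with a mean of at least 1 CPM, were Camkk1 (0.998), Rasal1 (0.997), Evpl (0.997), Acvr1c (0.996) and Mycl (0.996). Camkk1, which encodes a kinase that activates calmodulin-dependent kinases, had 160.0, 174.1 and 157.9 CPM in Control libraries and 110.9, 114.0 and 119.8 CPM in the CBP-ifKO libraries. Of the CA2-enriched genes, Necab2 had an r of 0.963, at rank 179, and Ptpn5 one of 0.894, at rank 840. Amigo2 (0.588), Pcp4 (0.203), Fgf2 (-0.010), Cacng5 (-0.060), Stard5 (-0.188) and Map3k15 (-0.814) came far below. All these values share the same 6 libraries and the same difference between groups, and they are given as a description.

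**Figure D4:**
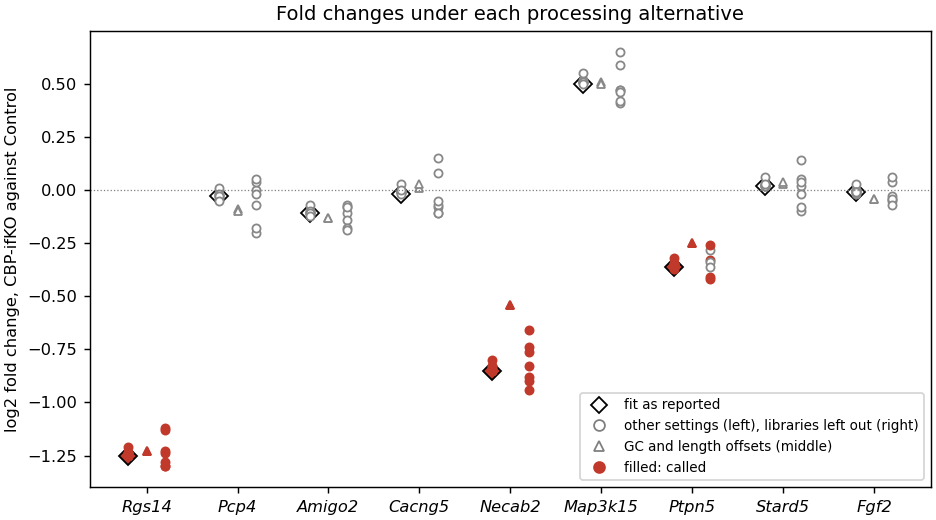
The log2 fold change of the 9 CA2-enriched genes in the fit as reported (diamonds) and under 17 alternatives (circles and triangles), with filled symbols where the gene was called at an adjusted p under 0.05. Rgs14 lies between -1.30 and -1.12 and is called in all, Necab2 moves up to -0.54 when GC and length trends are removed, and the 6 genes that were not called stay so under each.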

How the data were processed

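Hippocampal RNA was sequenced in 6 libraries, grouped as Control and CBP-ifKO by their titles. The authors trimmed reads, aligned them with STAR (version 2.6.1, per the submitters' processing notes) to GRCm38 and counted them over exons of Ensembl genes with Rsubread, and the deposited values are raw counts per gene. Whether strand was used is not given in the sources used here.

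The counts were tested with edgeR (4.0.16, limma 3.58.1, R 4.3.3) by its quasi-likelihood F-test, TMM scaling, filterByExpr (minimum count 10, total 15) and Benjamini-Hochberg adjustment. The SE is the log2 fold change over the square root of F. The study's own test, the Wald test of DESeq2, was an alternative (1.42.0). The coefficient of variation between replicates was 6.81%, and counting error exceeds it for genes of few counts. GENCODE annotation of GRCm38 supplied symbols for 99.6% of identifiers. The fit was tested on simulated data. The 9 genes and all lists were chosen with earlier results of these data known. Named were the 9 genes, Crebbp, Esr1, further CA2 genes, called or abundant relatives, the extremes of marker lists (2 of which are not reported here), nearest neighbours and the 5 genes most like Rgs14. Il16, Pdha1 and other genes with shared exons, the other called markers, and Gnai3 and Necab1 were named after their values were seen. The alternatives were other scalings, filters and tools, each library left out, the replicate number as a block, and removal of GC and length trends.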

Additional observations from a re-analysis of the deposited data

How the results depend on the processing

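Rgs14 and Necab2 were called lower under all 17 alternatives, Ptpn5 under 14 of them, and none of the 9 genes was ever called higher. Leaving out 1 library gave 2 to 3 of the 9 genes called lower and -1.30 to -1.13 for Rgs14. The median log2 fold change of the 9 genes was -0.18 to -0.02 with 1 library left out, the lowest value without CBP-ifKO replicate 2, and -0.18 with replicate 2 of both groups left out, an alternative chosen after the GC slopes had been seen. The number of genes called, 1149, was 498 to 1326 with 1 library left out and fell to 546 without Control replicate 3, to 498 without CBP-ifKO replicate 2 and to 526 without CBP-ifKO replicate 3.

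The direction of the genes near 0 was not stable. With scaling by library totals the log2 fold change was 0.01 for Pcp4, 0.03 for Cacng5 and 0.03 for Fgf2, and with GC and length trends removed that of Cacng5 was 0.01. With replicate 2 of both groups left out, Stard5 was at -0.08. Leaving out 1 library gave -0.20 to 0.05 for Pcp4, -0.11 to 0.15 for Cacng5, -0.10 to 0.14 for Stard5 and -0.05 to 0.06 for Fgf2. The cause was not tested. Library totals as the scale shifted the median of all genes to 0.043 and the share of lower calls from 78.1% to 56.5% (667 lower and 514 higher), and removing GC and length trends moved that share to 64.6%.

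Deviations from the group means correlated at only 0.0787, 0.0376 and 0.000817 between libraries of one replicate number. These values still held the GC trends, which had opposite signs in the 2 libraries of replicate 2 (0.134 and -0.116). The correlations therefore cannot decide whether libraries of one number are paired. With the replicate number as a block 1210 genes were called, and Rgs14, Necab2 and Ptpn5 had log2 fold changes of -1.25, -0.85 and -0.36. The block together with the removal of GC and length trends gave 1925 calls, against 1227 with that removal and no block. Of the 1925 calls 60.0% were lower, and Cacng5 was at 0.03. DESeq2 called 903 genes. By Spearman's rho, 51 genes tied at 1 with Rgs14, so that the order of likeness rests on Pearson's r. With 22 to 54 counts per library, the log2 fold change of Map3k15 (SE 0.22) is the least precise of the 9.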
